A study of Mus musculus with 4 samples.

Results

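An anti-FLAG gel also recovers RNA from cells that hold no FLAG-tagged protein. This background was described by setting the mock IP library against the mock input library, which are 2 of the 4 libraries of the series. Members were the features with at least 20 reads in 1 of these libraries, a feature being 1 gene symbol. They numbered 1551 of 4973 symbols in the deposited table of noncoding transcripts and 7517 of 16470 in the deposited table of mRNAs.

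The series looked for RNAs bound by a mutant of Dis3l2, an exoribonuclease that degrades RNA carrying a tail of uridines. All 4 libraries came from mouse embryonic stem cells of strain C57BL/6 at passages 25 to 30, adapted to gelatin without feeder cells and grown with LIF and serum. Cells were either mock transfected or transfected with FLAG-tagged mutant Dis3l2, and the sources used here give neither the mutation nor what the mock cells received. Each condition gave 1 input library after RiboMinus selection against ribosomal RNA and 1 IP library from anti-FLAG M2 affinity gel, which is not described as RiboMinus-selected. A ratio of IP to input therefore compares RNA prepared in different ways, and RiboMinus selection cannot be told apart from recovery on the gel. With 1 library per group there is no replicate and no test below. The mutant pair shares no library with the mock pair, and its values are given beside those of the mock.

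RNA immunoprecipitation pulls down a protein with the RNA it holds, and RNA that sticks to the beads, the antibody or the tube comes along. A mock IP measures that part. Small nuclear RNAs (snRNAs) build the spliceosome. Small nucleolar RNAs (snoRNAs) guide chemical changes of ribosomal RNA, the H/ACA box kind for pseudouridine and the C/D box kind for ribose methylation, and are mostly cut from introns of host genes. The 7SL RNA is the scaffold of the signal recognition particle, RNase P and RNase MRP RNAs help to process transfer and ribosomal RNA, and microRNA genes give hairpins that are trimmed to short guides. In embryonic stem cells these RNAs are abundant and, in part, kept in the nucleus.

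MicroRNA genes stood at both ends of the comparison, so the mature sequences listed for them are shown first. Of 9 microRNA genes that passed the read minimum, 4 had more reads in the mock IP and 5 had fewer. Sequences for 8 of them were matched by symbol to RefSeq (assembly GRCm38.p6) and are given 5′ to 3′, with the seed, bases 2 to 8, in capitals. The 4 genes with more mock IP reads list these mature forms:
mmu-miR-6236: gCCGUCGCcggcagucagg
mmu-miR-6240: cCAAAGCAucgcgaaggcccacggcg
mmu-miR-8094: aACUGAAGgacaacgagaaga
mmu-miR-3473f: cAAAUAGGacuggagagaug
The genes with fewer mock IP reads list these:
mmu-miR-3069-5p: uUGGCAGUcaagauauuguuuagc
mmu-miR-3069-3p: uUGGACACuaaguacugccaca
mmu-miR-6516-5p: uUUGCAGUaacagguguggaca
mmu-miR-6516-3p: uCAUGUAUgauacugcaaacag
mmu-miR-3068-5p: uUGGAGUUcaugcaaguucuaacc
mmu-miR-3068-3p: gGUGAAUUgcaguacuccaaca
mmu-miR-1843b-5p: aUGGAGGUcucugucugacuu
mmu-miR-1843b-3p: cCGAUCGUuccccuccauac
No 2 of these 12 mature forms share a seed. The miR-6236 sequence lies at chr9:110281353-110281371 on the plus strand and 78.9% of its bases are G or C. The miR-6240 sequence lies at chr5:114851973-114851998 on the plus strand, with 69.2% G or C.

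The mock IP held far more mRNA than its input. The deposited values are whole reads divided by 2.5 in both mock libraries, so the read counts could be recovered. In the mutant input and IP the factors are 1.8 and 2.7, so equal mutant reads are not equal deposited values. The mRNA table took 9.61% of the reads of both tables in the mock input (291175 against 2738512 noncoding reads) and 46.3% in the mock IP (1860030 against 2157604). The mutant libraries gave 10.1% and 41.7%. Reads at a single gene, Lars2, made up much of this. Lars2 encodes the leucyl-tRNA synthetase of mitochondria. Its 101393 mock input reads and 1089665 mock IP reads were 34.8% (exact Clopper-Pearson 95% interval 34.6 to 35.0) and 58.6% (58.5 to 58.7) of the mRNA table. Whether the reads at Lars2 came from its mRNA or from like sequence elsewhere was not tested. Without Lars2 the table still went from 189782 to 770365 reads. PCR copies are not independent molecules, so these and all later intervals cover counting error alone. How reads with multiple alignments were counted is not given, so reads at near-identical noncoding copies may be counted repeatedly in these totals and shares.

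Among noncoding reads, snRNAs held the largest share of the input and a few ribosomal or unassigned transcripts the largest share of the IP. The transcripts Rn18s-rs5, Gm42418, AY036118 and Gm26917 together made up 29.9% of noncoding reads in the mock input and 75.0% in the mock IP. Rn18s-rs5 is named for 18S ribosomal RNA but has the RefSeq class pseudogene, RefSeq lists Gm42418 as another name for it, and AY036118 overlaps it. Gm26917 has no RefSeq class, and the tables used here do not tie it to ribosomal RNA. Features of the RefSeq class snRNA went from 48.2% (48.1 to 48.3) to 1.62% (1.60 to 1.64). Both this class and the group led by Rn18s-rs5 hold near-identical or overlapping features. A read may have been counted at several of them, which would inflate these shares, and this was not tested. MicroRNA genes went from 0.225% (0.220 to 0.231) to 11.4% (11.4 to 11.5), Malat1 from 0.0490% to 1.31%, and mitochondrial ribosomal and transfer RNA from 0.0598% to 0.993%. The 7SL RNA made up 1.46% of the input and 0.0912% of the IP, and H/ACA box snoRNAs 1.08% and 0.00524%. In the mRNA table, entries that RefSeq classes as small or ribosomal RNA went from 17.2% to 0.190%, while protein-coding genes other than Lars2 kept a similar share, 39.0% and 37.4%, of a much larger total.

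**Figure D1:**
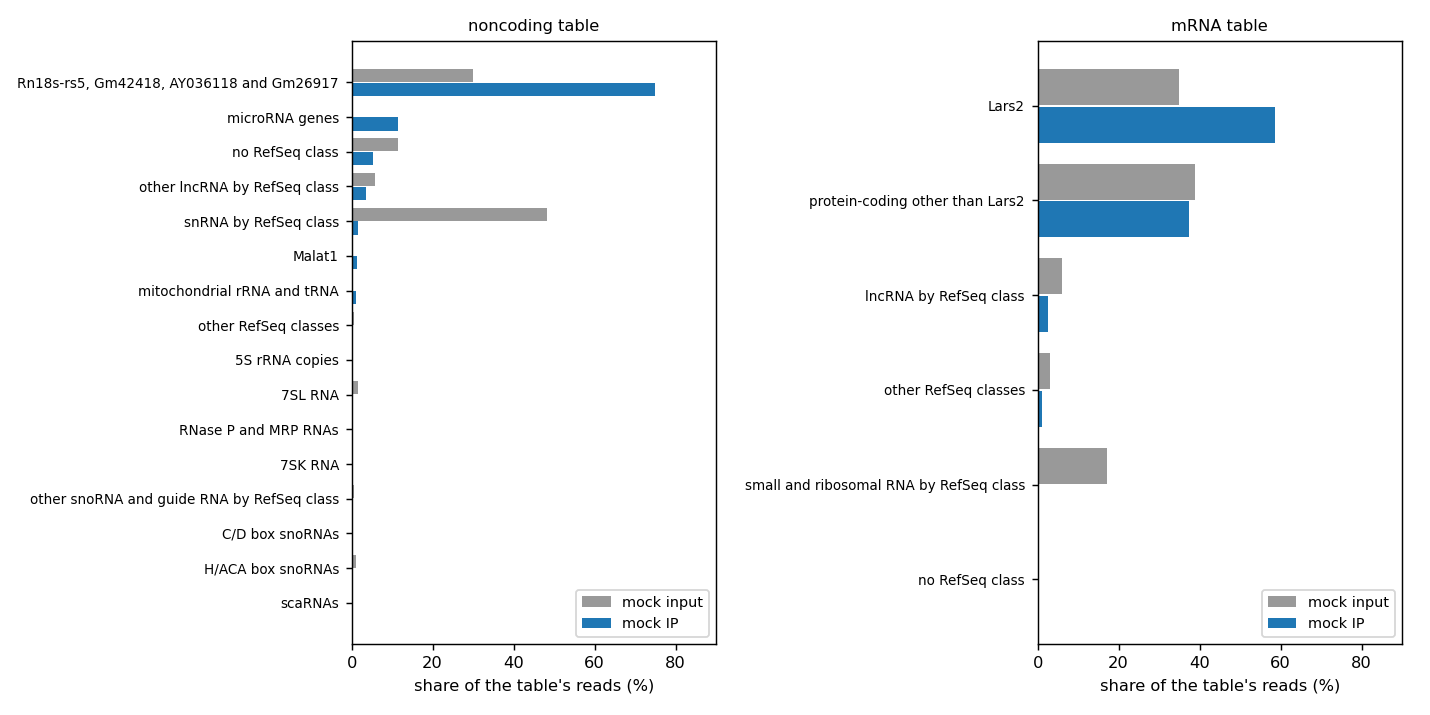
Share of each table's reads (horizontal axis, percent) taken by each RNA class in the mock input (grey) and the mock IP (blue), 1 library each, with the noncoding table on the left and the mRNA table on the right. Rn18s-rs5, Gm42418, AY036118 and Gm26917 take 75.0% and microRNA genes 11.4% of the noncoding IP reads, and snRNAs 48.2% of the input reads but 1.62% of the IP reads.

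Over the noncoding table the typical feature was recovered close to its input level, with wide tails on both sides. The median log2 ratio of mock IP to mock input was -0.11 with 1 added to each deposited value, a ratio of 0.929. Relative to that median, 348 features (22.4%) were at least 4-fold above and 273 (17.6%) at least 4-fold below. On the deposited scale, without centring, 330 (21.3%) were at least 4-fold higher in the IP and 280 (18.1%) lower. The upper tail was mostly shallow: of 141 features with 20 to 29 reads in both mock libraries together, 108 were called above, and of 455 with 300 reads or more, 27 were called above and 148 below. The read minimum itself shaped this, since a feature with 20 to 29 reads in sum can pass in 1 library only. In the IP alone 413 features passed and in the input alone 226. Of the 912 that passed in both, 46 were above and 111 below the same median. Scaling mattered as well. When both libraries were set to equal totals without the 20 features with most reads, the median of all features came to 1.99, 81.1% of the calls were above in place of 56.0%, and the U11 and U12 pair, 7SL and H/ACA lists stayed below input while the 5S and C/D box lists came out above it.

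**Figure D2:**
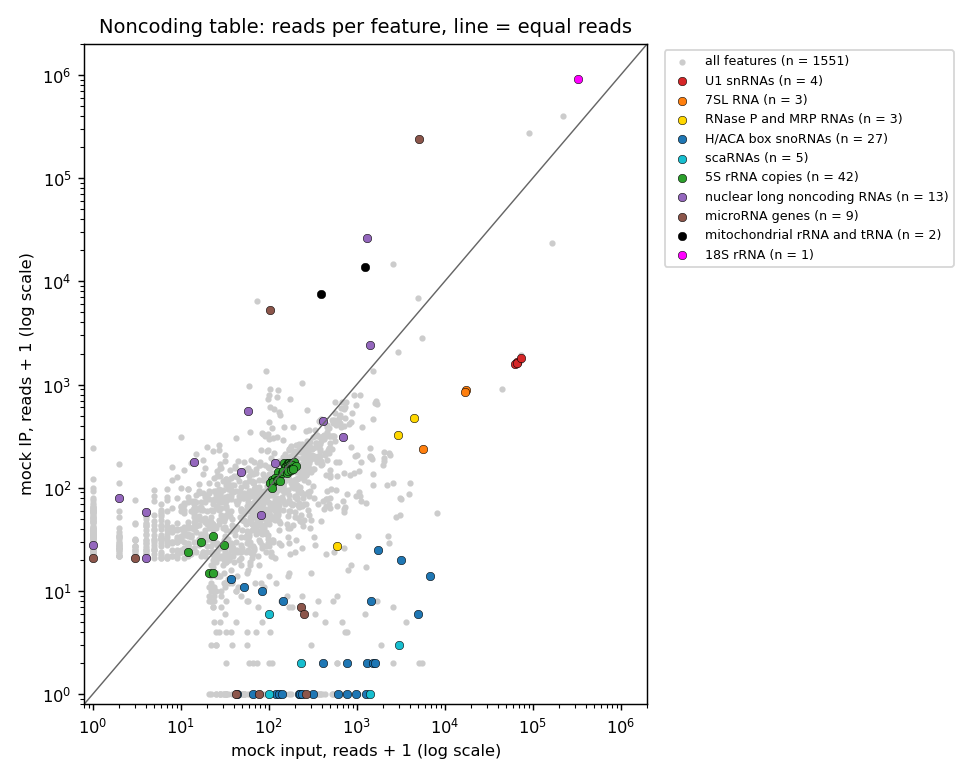
Reads plus 1 per noncoding feature in the mock input (horizontal axis) and the mock IP (vertical axis), both on log scales, with 1 point per feature (n = 1551) and named classes in colour; the line marks equal reads. Rn18s-rs5, Mir6236, Malat1 and the mitochondrial ribosomal RNAs lie above the line, the 5S copies on it, and U1, 7SL, RNase P and MRP RNAs, H/ACA box snoRNAs and scaRNAs below it.

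Transcripts named for or overlapping 18S ribosomal RNA, and the ribosomal RNAs of mitochondria, had more reads in the mock IP than in the mock input. Rn18s-rs5 had 331483 reads in the mock input and 915200 in the mock IP, which is a ratio of 2.76 (95% interval 2.75 to 2.77). AY036118 had 90962 and 277209 reads, a ratio of 3.05 (3.02 to 3.07), and Gm42418 had 221265 and 397551, a ratio of 1.80. These 3 overlapping features were higher in the IP but did not reach 4-fold from the median. Gm26917 went the other way, with 163866 input reads and 23762 IP reads, a ratio of 0.145 (0.143 to 0.147). The mitochondrial ribosomal RNAs, which form the small and the large subunit of the organelle's ribosome, both passed 4-fold. mt-Rnr1 had 394 and 7546 reads, a ratio of 19.2 (17.3 to 21.2), and mt-Rnr2 had 1240 and 13860, a ratio of 11.2 (10.5 to 11.9). They were the only 2 of 8 mitochondrial features that passed the read minimum.

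The 5S ribosomal RNA copies, part of the large ribosomal subunit, stayed at their input level in the mock. Of 68 listed copies 42 passed the minimum, and 0 were called above or below. Their median log2 ratio was -0.07 and their range -0.57 to 0.92. The most abundant copy by both mock libraries together, n-R5s103, had 192 input reads and 177 IP reads, a ratio of 0.922 (0.747 to 1.14). Copies are near-identical and are not independent measurements. In the mutant pair the same features had a median of 3.84, with 43 input and 955 IP reads for n-R5s103.

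Long noncoding RNAs known for staying in the nucleus were mostly above their input. Of 18 listed, 13 passed the minimum, 7 were called above and 0 below, where 22.4% of all noncoding features were above, and more of the shallow ones. The list's median log2 ratio was 2.03 beside -0.11 for all features. Malat1, a nuclear speckle RNA, had 1296 reads in the mock input and 26291 in the mock IP, which is a ratio of 20.3 (19.2 to 21.5). The imprinted Meg3 had 57 and 551 reads, a ratio of 9.67 (7.35 to 12.9), and Firre, which is tied to nuclear architecture, had 13 and 175, a ratio of 13.5 (7.67 to 25.8). Tug1 had 1 and 79 reads, a ratio of 79.0 with an interval of 13.8 to 3159. Xist, the RNA that silences an X chromosome, had 47 and 141 reads, a ratio of 3.0 (2.14 to 4.27), under 4-fold. Nuclear residence did not go with 1 value, however. Neat1, the scaffold of paraspeckles, had 411 and 447 reads, a ratio of 1.09 (0.949 to 1.25), Kcnq1ot1 had 1414 and 2399, a ratio of 1.70 (1.59 to 1.81), and Jpx had 697 and 312, a ratio of 0.448 (0.390 to 0.512) that turned above input under equal totals without the 20 deepest features. The 7SK RNA, which restrains transcription elongation, was also above input: Rn7sk had 122 and 754 reads, a ratio of 6.18 (5.10 to 7.55).

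Of 246752 reads at microRNA genes in the mock IP nearly all were at Mir6236. It had 5131 reads in the mock input and 241290 in the mock IP, which is a ratio of 47.0 (45.7 to 48.4). Mir6240 followed with 103 and 5262 reads, a ratio of 51.1 (42.0 to 62.7). The other high members were shallow: Mir8094, which lies in Ddx39b, had 0 and 20 reads and was at least 6.67-fold higher, and Mir3473f, in Bcl2, had 2 and 20, with an interval of the ratio from 2.43 to 88.2. The floor for a library with 0 reads is 3 reads. In the mutant pair Mir6236 had 3878 and 228571 reads and Mir6240 56 and 6817, so both were far above input there as well. RefSeq lists Gm39429 over Mir6236 and no gene over Mir6240. Whether these reads came from the loci of these microRNA genes or from like sequence elsewhere was not tested.

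Of the microRNA genes with few mock IP reads, several lie in or over other features that were also low. Mir3069 had 264 input reads and 0 IP reads, at least 88.0-fold lower, and RefSeq places it over Scarna13 and Snhg10. Mir6516 had 252 and 5 reads, a ratio of 0.0198 (0.00639 to 0.0469), and lies in Snhg20, itself at 788 and 15 reads. Mir1949 had 230 and 6 reads and lies in Snhg4, which had 238 and 46. Mir1843b, with 41 and 0 reads, lies over Cop1 and Scarna3a, and Scarna3a had 101 and 0. Mir3068, with 77 and 0 reads, lies in Alkbh1, which had 4 and 61 reads in the mRNA table, and is the 1 low member without a listed snoRNA, scaRNA or snoRNA host beside it. Which of the overlapping features gave the reads was not tested. The median over the 9 genes, -4.12, describes none of them well, since the 2 kinds lie on opposite sides.

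Several unnamed or little-known transcripts headed the list of high ratios. Gm15564 had 72 reads in the mock input and 6488 in the mock IP, which is a ratio of 90.1 (71.5 to 115). Gm26853 had 0 and 244 reads, at least 81.3-fold higher, and Gm20362 had 0 and 121, at least 40.3-fold higher. AU020206, Gm37381, Gm26811 and Gm26804 had 0 input reads and 99, 92, 78 and 75 IP reads. 2810429I04Rik had 1 and 168 reads, a ratio of 168 with an interval from 29.7 to 6675, and 1810014B01Rik had 1 and 109. All 9 were above input in the mutant pair too, with 28 and 7112 reads for Gm15564, 19 and 277 for Gm26853, 0 and 190 for AU020206 and 13 and 332 for 2810429I04Rik. Gm25732, among the features with most IP reads, had 2590 and 14753 reads, a ratio of 5.70 (5.46 to 5.94). By name class, 227 of 970 predicted genes named Gm were above and 170 below, shares close to those of the whole table, and 62 of 270 RIKEN clone transcripts were above and 20 below.

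Spliceosomal snRNAs were among the RNAs the gel recovered least. The U1 RNAs, which recognise the 5′ splice site, fell into 4 listed genes with nearly the same values. Rnu1a1 had 73252 reads in the mock input and 1791 in the mock IP, which is a ratio of 0.0244 (0.0233 to 0.0256), and the log2 ratios of all 4 lay between -5.35 and -5.32. Gm22513, Gm25679 and Gm26444, which RefSeq also classes as snRNA, had 74667, 73335 and 73095 input reads and 1918, 1808 and 1735 IP reads. Near-identical copies cannot be told apart by these counts. Rnu2-10, a U2 RNA that pairs with the branch point, had 1428 and 202 reads, a ratio of 0.141 (0.121 to 0.164). The U11 RNA of the minor spliceosome, Rnu11, had 2239 and 33 reads, a ratio of 0.0147 (0.0101 to 0.0208), and its partner U12, Rnu12, had 265 and 69, a ratio of 0.260 (0.197 to 0.341). The U12 ratio was under 4-fold from the median and turned slightly above input, to a log2 of 0.20, under equal totals without the 20 deepest features. U5 and U6 had too few reads to describe: Rnu5g had 0 and 7 and Rnu6 0 and 1.

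The RNAs of the signal recognition particle and of RNase P and MRP were low as well. Rn7s1 had 17358 mock input reads and 890 mock IP reads, Rn7s2 had 16983 and 840, and Rn7s6 had 5688 and 237. The 3 log2 ratios lay between -4.57 and -4.28. Rmrp, the RNA of RNase MRP, had 2922 and 325 reads, a ratio of 0.111 (0.0989 to 0.125). Rpph1, the RNA of RNase P, had 4475 and 475 reads, a ratio of 0.106 (0.0964 to 0.117), and the RNase P-like Rprl3 had 596 and 26. All of them were called below in the mock. In the mutant pair Rn7s1 had 16801 and 45304 reads and Rmrp 2499 and 6838, above input, while Rpph1, at 4144 and 3812 reads, was below it, at a log2 of -0.71.

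H/ACA box snoRNAs were rare in the mock IP, with 113 reads for the whole list, although the input held 29424 of their reads. Of 38 listed, 27 passed the minimum, 26 were called below and 0 above, with a median log2 ratio of -6.87. Over all noncoding features 17.6% were called below. Only 1 of the 27 had at least 20 reads in both libraries, so nearly all were members through their input reads. Snora64 had 6877 reads in the mock input and 13 in the mock IP, which is a ratio of 0.00189 (0.00101 to 0.00323). Snora43 had 5003 and 5 reads, Snora17 3222 and 19, and Snora73b 1763 and 24. Snora68 had 1271 and 0 reads, at least 424-fold lower. The exception was Snora34, with 36 and 12 reads, a ratio of 0.333 (0.158 to 0.656), and under equal totals without the 20 deepest features it came out above input, at a log2 of 0.52. The scaRNAs, which guide modification of snRNAs in Cajal bodies, behaved alike in these libraries: 5 of 9 passed, through their input reads alone, and all 5 were below, with 3015 and 2 reads for Scarna13 and 1414 and 0 for Scarna8, at least 471-fold lower. In the mutant pair the medians of both lists were similarly low, at -6.58 and -6.29. Some predicted genes were as low, with 5560 and 1 reads for Gm26397, 3638 and 4 for Gm22988 and 2598 and 1 for Gm24130, which RefSeq classes as a snoRNA.

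C/D box snoRNAs and several other small RNAs were scarce in both mock libraries and allow no such statement. Of 22 listed C/D box snoRNAs only Snord15a, with 39 and 23 reads, and Snord17, with 25 and 23, passed the minimum, and their ratios of 0.590 (0.336 to 1.01) and 0.920 (0.499 to 1.69) could not be told apart from equal reads. All 22 together had 100 mock input reads and 115 mock IP reads. The Y RNAs Rny1 and Rny3, which bind the Ro60 protein, had 0 reads in both, and the vault RNA Vaultrc5 had 6 and 10.

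Host genes of H/ACA box snoRNAs were low like the snoRNAs inside them. Of 15 listed snoRNA host genes 11 passed, 8 were called below and 0 above, with a median of -5.50. Over all noncoding features 17.6% were called below. Only 4 of the 11 had at least 20 reads in both libraries. Snhg7, Dancr, Snhg12, Snhg20, Snhg3 and Snhg8 passed through their input reads alone. The list's median, -5.50, is the value of Snhg20, at 788 and 15 reads, for which the overlaps used here list Mir6516 and no snoRNA. Snhg7 holds Snora17 and Snora43, and had 5064 reads in the mock input and 1 in the mock IP, close to the 5003 and 5 of Snora43. Dancr, which holds Snora26, had 386 and 0 reads, at least 129-fold lower. Snhg12, which holds Snora16a, Snora44, Snora61 and Snord99, had 783 and 3 reads, and Snhg3, with Snora73a and Snora73b inside, had 1284 and 16. Snhg8, which holds Snora24, had 123 and 0. Hosts that mostly carry C/D box snoRNAs were near their input: Snhg14 had 348 and 271 reads, a ratio of 0.779 (0.662 to 0.915), Snhg1 had 17 and 23, and Rian had 116 and 171, a ratio of 1.47 (1.16 to 1.88). In the mRNA table the entry for Dancr had 960 and 0 reads and that of Snora26, inside it, 956 and 0. How much of a host's count came from the snoRNA inside it was not tested.

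**Figure D3:**
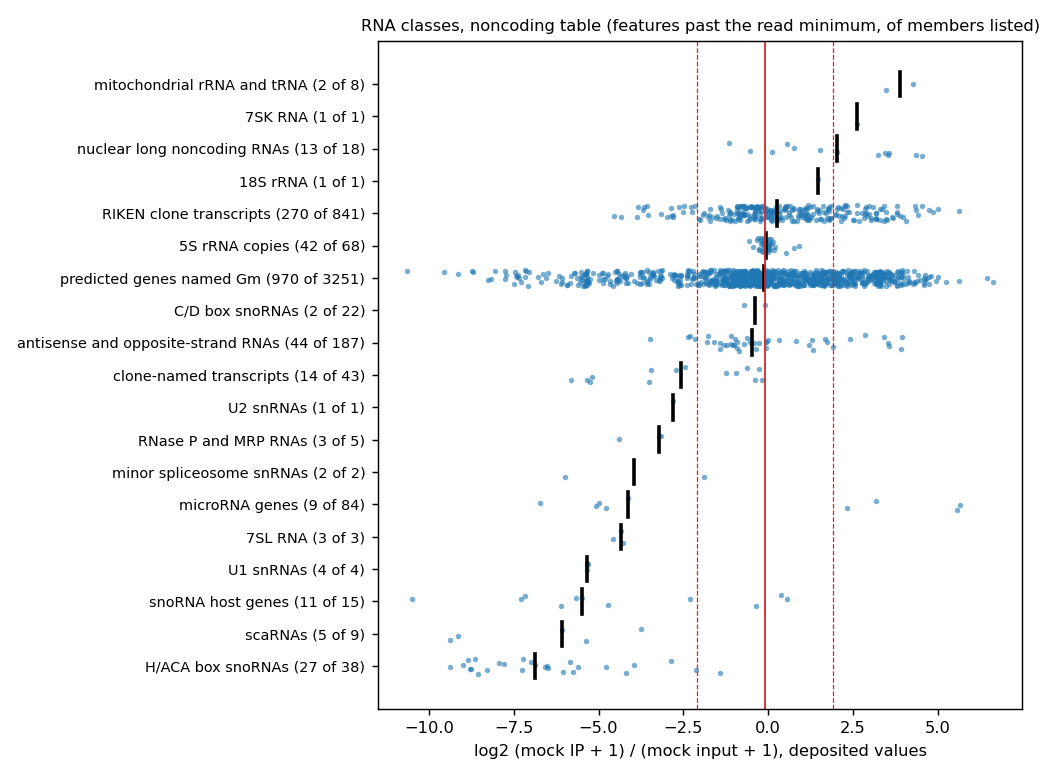
Log2 ratio of mock IP to mock input, with 1 added to each deposited value (horizontal axis), for each noncoding feature that passed the read minimum, by RNA class; black bars are class medians, the solid red line is the median of all features (-0.11) and the dashed lines lie 4-fold from it. H/ACA box snoRNAs have the lowest median, -6.87, the mitochondrial RNAs the highest, 3.87, and microRNA genes split to both sides.

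In the mRNA table the typical gene had many more reads in the mock IP than in the shallow mock input. The median feature had 5 reads in the input and 51 in the IP, and the median log2 ratio was 3.14, a ratio of 8.79. On the deposited scale the IP was at least 4-fold higher for 5796 of 7517 features (77.1%) and at least 4-fold lower for 132 (1.76%). Relative to the table's median, 244 (3.25%) were at least 4-fold above and 806 (10.7%) at least 4-fold below, so that 23.2% of the calls were above. That split depended on the scale: 97.8% of calls were above without centring, 65.2% with equal totals and 72.9% with equal totals without the 20 deepest features. The read minimum and the shallow input both shaped these ratios. In the IP alone 6074 features passed the minimum and in the input alone 200, so most members were chosen by their IP reads. Of the 7517 features 2008 had 0 mock input reads, 134 of which had at least 10 in the mutant input, and only 1243 had at least 20 reads in both mock libraries. In that deeper set the median was 1.76.

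Messenger RNAs of the secretory pathway lay above the table's median and those of ribosomes below it, both by modest amounts. Of 34 genes for folding and translocation in the endoplasmic reticulum, 8 lay under the median of all features, and their own median was 3.79. The calls did not set the list apart: 1 was above and 1 below, where 3.25% and 10.7% of all features were. Hspa5, the chaperone BiP, had 35 reads in the mock input and 863 in the mock IP, which is a ratio of 24.7 (17.6 to 35.6). Calr, a calcium-binding chaperone, had 90 and 1667 reads, a ratio of 18.5 (15 to 23.2), Canx 173 and 1828, a ratio of 10.6 (9.04 to 12.4), and Hsp90b1 116 and 1129, a ratio of 9.73 (8.03 to 11.9). Summed over its 41 measured members the list had 747 and 10787 reads, a ratio of 14.4, where protein-coding genes other than Lars2 gave 6.13. The mutant pair gave a list median of 3.86 beside 2.87 for all features.

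Of 79 cytosolic ribosomal protein genes, 65 lay under the table's median. Only 4 were called below and 0 above, and a larger share of all features, 10.7%, was called below. Their median was 2.14, and on the deposited scale 44 of them were still at least 4-fold higher in the IP. At least 20 reads in both mock libraries were found for 41 of the 79 and for 1243 of all 7517 features. The 1243 had a median of 1.76. Whether the list's place under the table's median went with its input depth was not tested. Rpl4 had 102 and 571 reads, a ratio of 5.60 (4.53 to 6.98), Rps2 had 113 and 393, a ratio of 3.48 (2.81 to 4.33), and Rpl35a had 30 and 46, a ratio of 1.53 (0.947 to 2.52). Rpl6 lay above the median, at 43 and 498 reads and a ratio of 11.6 (8.47 to 16.2). Summed, the list had 2190 and 10783 reads, a ratio of 4.92. With equal totals the list median turned below input, to -0.35. Genes of the mitochondrial ribosome lay lower again, with a median of 1.88 and 8 of 23 called below: Mrpl51 had 40 and 40 reads and Mrpl27 60 and 52. The mutant medians of these lists were 2.40 and 2.47, again under that of all features.

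The medians of the other lists lay on either side of the table's 3.14, some with single genes far from it. Their calls are read against 3.25% above and 10.7% below over all features. Oxidative phosphorylation genes had a median of 3.17, chromatin regulators 3.16, glycolysis genes 3.28, aminoacyl-tRNA synthetases 3.16 and translation factors 2.95. Of 45 splicing factor genes 3 were above and 1 below around 3.54, with 218 and 407 reads for Snrnp70, a U1 protein, and 122 and 1947 for Srrm2, a scaffold of nuclear speckles; in the mutant pair the list's median, 2.80, was under that of all features. Of 34 RNA decay genes 3 were above and 2 below around 3.45, with 8 and 524 reads for Cnot1, the scaffold of the deadenylase complex, and 11 and 476 for Smg1, a kinase of nonsense-mediated decay. Genes of giant cytoskeletal and scaffold proteins had a median of 2.63, with 294 and 821 reads for the myosin Myh9, a ratio of 2.79 (2.44 to 3.20). Heterogeneous nuclear RNP genes had a median of 3.41, matrix and adhesion genes 2.97, chaperonin and heat shock genes 3.33, proteasome genes 2.92, and actin and tubulin genes 2.90. Of 14 replication histone genes 0 were above and 2 below around 2.60, and of 5 immediate early genes 1 was below around 2.5. Of 177 zinc finger genes named Zfp, 7 were above and 29 below around 3.23, and their extremes were Zfp57, an imprinting factor, at 3 and 552 reads, and Zfp248 at 151 and 10.

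**Figure D4:**
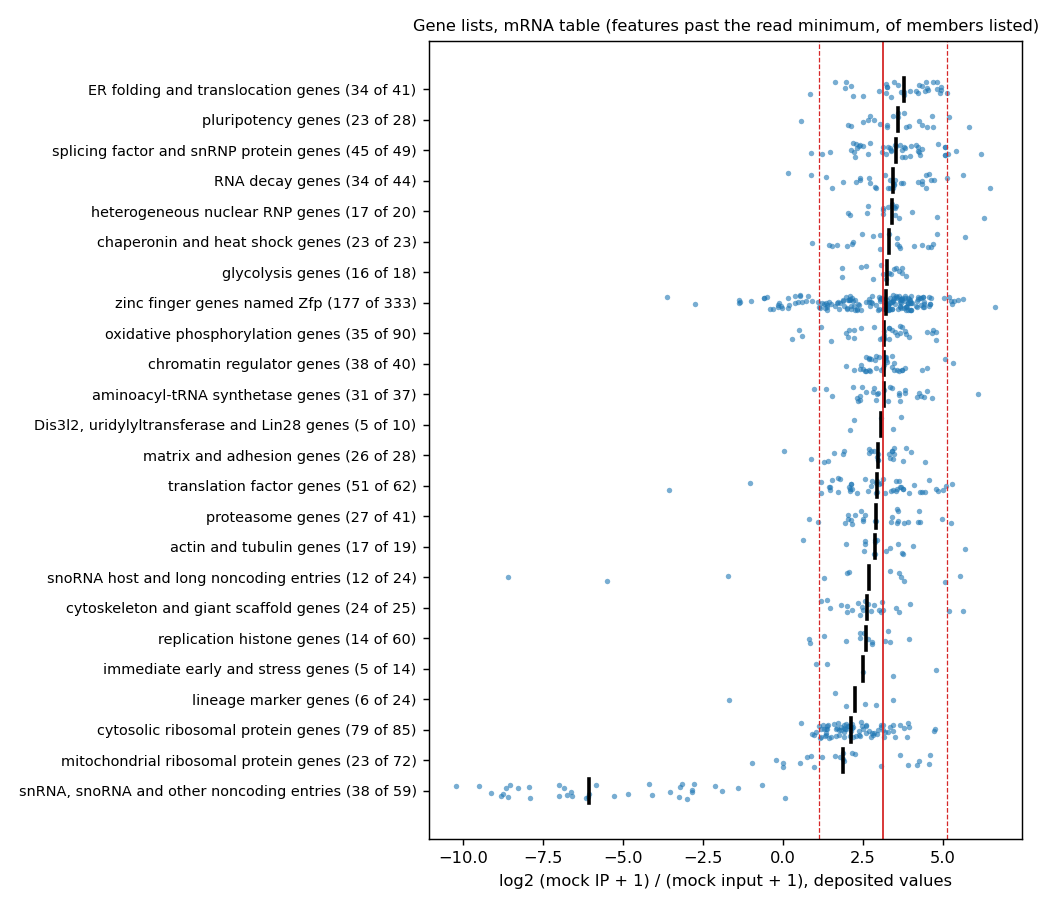
Log2 ratio of mock IP to mock input, with 1 added to each deposited value (horizontal axis), for the genes of each list that passed the read minimum in the mRNA table; black bars are list medians, the solid red line is the median of all 7517 features (3.14) and the dashed lines lie 4-fold from it. Medians of protein-coding lists run from 1.88 for mitochondrial ribosomal proteins to 3.79 for endoplasmic reticulum genes, and the small noncoding entries lie far lower at -6.07.

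The highest mRNA ratios rested on 0 to 7 input reads. Mdm4, a p53 regulator, had 0 reads in the mock input and 481 in the mock IP, at least 160-fold higher, and it had 3 and 997 in the mutant pair. Plekhm1, Zkscan1 and Marf1 had 0 input reads and 283, 283 and 270 IP reads, and Cbx7, a Polycomb subunit, had 0 and 245. Ddx17, an RNA helicase, had 7 and 984 reads, a ratio of 141 (68.0 to 351), and Zbed6 had 5 and 840, a ratio of 168 (71.7 to 519). Counts in the mutant input were often higher: Plekhm1 had 13 there, Cbx7 10, Ddx17 34, and Edc4, a decapping scaffold with 0 and 220 mock reads, had 23. Among genes with at least 20 reads in both mock libraries the range was narrower. Usp48 had 35 and 936 reads and Ptma 50 and 1140, with ratios of 26.7 and 22.8. The 1 feature of this deeper set that lay 4-fold above the full table's median was the pseudogene Pisd-ps3, at 20 and 1066 reads.

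By number of reads the mock IP was led, after Lars2, by Malat1, Hsp90ab1 and Ccdc82. Malat1 had 809 and 27257 reads at its entry in this table, a ratio of 33.7 (31.4 to 36.2). Hsp90ab1, a cytosolic chaperone, had 277 and 3356 reads, a ratio of 12.1 (10.7 to 13.7), and Ccdc82, which overlaps Gm26189, had 486 and 3152, a ratio of 6.49 (5.89 to 7.15). The elongation factors Eef2 and Eef1a1 had 195 and 2279 and 169 and 2220. Lars2 itself had a ratio of 10.7 (10.7 to 10.8), between those of Ccdc82 and Hsp90ab1 and under that of Malat1. The pseudogene Gm17821, at 3880 and 2863 reads, and the long noncoding A130077B15Rik, at 2917 and 2236, also ranked among the 8 with most IP reads and were below the table's median.

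The lowest features of the mRNA table were noncoding entries. All 38 small noncoding entries that passed were called below, where 10.7% of all features were. Their median was -6.07, with the same H/ACA box snoRNAs, scaRNAs and RNase P and MRP RNAs as in the noncoding table. Only 10 of the 38 had at least 20 reads in both mock libraries, and 34 were at least 4-fold lower on the deposited scale. Snora43 had 10053 and 6 reads here and Scarna13 3258 and 2. The long noncoding 5730408K05Rik, which overlaps Snora57, had 2313 and 4. Of 12 long noncoding and host entries 1 was above and 3 below, where 3.25% and 10.7% of all features were. Of the 806 features below the table's median, 132 were at least 4-fold lower on the deposited scale as well. Protein-coding examples were Nkx2-1, a lung and thyroid factor, with 188 and 0 reads, at least 62.7-fold lower, Cplx2 with 381 and 11, Rorb with 454 and 36 and Mylk4 with 818 and 93. In the mutant pair these were low too, with 87 and 1, 281 and 50, 499 and 96 and 584 and 64 reads. Among the deepest genes at or below input were Zfp488, with 2845 and 2006 reads, and Olfr613, an olfactory receptor gene, with 1941 and 1432.

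Gene span and small RNA genes inside a gene showed little relation to the ratio. Spans were known for 6787 of the 7179 protein-coding genes that passed, and Spearman's rho between span and log2 ratio was 0.06 across genes, which are not replicates. The median was 2.81 for 496 genes under 5 kb, 3.23 for 2128 genes of 20 to 50 kb and 2.92 for 304 genes over 200 kb. A small RNA gene lay within 10.2% of all these genes, within 9.61% of those called above and within 7.31% of those called below. Among ribosomal protein genes the median was 2.34 for the 30 that hold one and 2.13 for the others. Span includes introns, and transcript length was not used here.

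The mock libraries carried the marker genes of embryonic stem cells. All 12 listed markers had at least 20 reads in the mock IP and 11 had reads in the input, 187 and 2824 reads in sum. Pou5f1 had 62 and 261 reads, Sox2 13 and 213, and Tdgf1 10 and 704. Of 28 pluripotency genes 23 passed, 2 were above and 1 below around a median of 3.59. The shares over all mRNA features were 3.25% above and 10.7% below. Only 5 of the 23 had at least 20 reads in both mock libraries. The 2 called above were Tdgf1, a Nodal co-receptor, at a ratio of 70.4 (38.1 to 147), and Tfcp2l1, at 9 and 420 reads. Both calls rested on few mock input reads, 10 for Tdgf1 and 9 for Tfcp2l1. Markers of other cells were few: 5 listed fibroblast markers summed to 13 and 73 reads, endoderm markers to 8 and 36, trophectoderm markers to 44 and 45, neural markers to 18 and 103 and mesoderm markers to 2 and 11. The trophectoderm gene Eomes, at 34 and 9 reads, was the 1 called below of 6 lineage markers that passed. In such bulk libraries fewer cells of a type and less RNA per cell cannot be told apart.

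Most of what the gel took or left in mock cells had the same direction in the mutant pair. Of the 348 noncoding features called above in the mock, 333 lay above the mutant pair's own median and 218 were 4-fold above it. Of the 273 called below, 251 were under the median there and 213 were 4-fold below. By definition as many features lie above that median as below it, and the share of all features 4-fold from it was not counted. Among the 912 with at least 20 reads in both mock libraries, 28 of 46 called above and 77 of 111 called below were again past 4-fold. Across the 1551 features Pearson's r was 0.84 and Spearman's rho 0.81, across features and with no replicates behind them. Of the 22 that were low in the mock but at or above the median in the mutant pair, the 7SL, RNase MRP and U2 RNAs are described above. In the mRNA table the calls above rested on few input reads. Of 244 called above in the mock, 210 were above the mutant median and 63 were 4-fold above it, while of 806 called below, 746 were under it and 550 were 4-fold below. There r was 0.63 and rho 0.45 over 7517 features, and 0.80 and 0.80 over the 1243 with at least 20 reads in both mock libraries. In this deeper set 0 of 1 called above and 318 of 444 called below were past 4-fold the same way in the mutant pair.

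**Figure D5:**
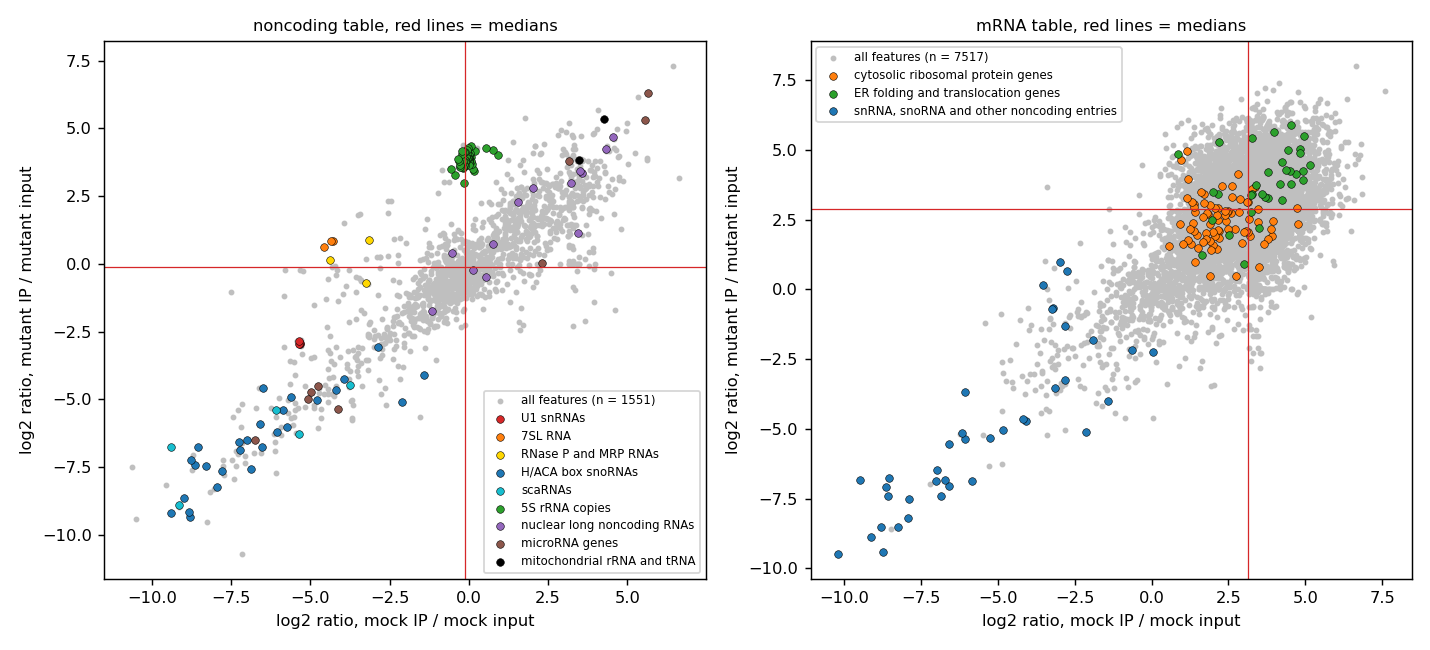
Log2 ratio of IP to input in the mock pair (horizontal axis) and in the mutant pair (vertical axis), with 1 added to each deposited value, for 1551 noncoding features (left) and 7517 mRNA features (right); red lines mark the medians and colours mark named classes. H/ACA box snoRNAs and scaRNAs lie at the lower left and Mir6236 and Malat1 at the upper right, while 5S, 7SL, RNase P and MRP and U1 RNAs lie above the trend, with higher ratios in the mutant pair.

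Dis3l2 itself had 3 reads in the mock input and 21 in the mock IP, which is a ratio of 7.0 (2.09 to 36.7). With 1 added to each deposited value its log2 ratio was 2.10, where the median over all mRNA features was 3.14. The mutant libraries had 7 and 127 reads. Of the 10 genes of the uridylation list, which holds terminal uridylyltransferases and Lin28a, 5 passed and 0 were called above or below. Dis3l2 had the lowest log2 ratio of the 5, 2.10, and the others lay between 2.24 and 3.70. Zcchc6, a uridylyltransferase, had 20 and 104 reads, and Lin28a, which recruits such enzymes to let-7 precursors, had 8 and 112.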

How the data were processed

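RNA immunoprecipitation sequencing gave 4 libraries, 1 per group. Reads were aligned with Bowtie to mm9, per the submitters' processing notes; versions, counter, strand and handling of multiple alignments were not given in the sources used here. All values that the authors deposited are a signal in 2 tables: 100% of them were whole reads, within 0.02 reads, divided by 1.8 (mutant input), 2.5 (mock input), 2.7 (mutant IP) or 2.5 (mock IP). The meaning of the factors is unknown, and values had not been divided by length. Whole reads were recovered from them, but with 1 library per group no count test could be run.

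Each symbol was represented by its transcript of highest mean, and 26 symbols stored as dates were restored through RefSeq accessions. Log2 ratios, calls and the ratios given for table medians used a pseudocount of 1 on the deposited values. Ratios of single features and of summed lists used none. A feature was called at 4-fold from its table's median over features with at least 20 reads in 1 mock library. Exact conditional binomial 95% intervals used reads, and a library at 0 reads was set to a floor of 3. RefSeq GRCm38.p6 gave classes, spans and overlaps for 16451 mRNA and 2323 noncoding symbols. Python 3.11.15, numpy 2.4.6, pandas 2.3.3 and scipy 1.17.1 were used, and the calls were tested on simulated data.

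The members and the 45 gene lists were chosen with earlier results of these data known. Edits to the lists followed a look at the files: host genes left the microRNA list, Gm26917 the nuclear list and Eif2ak kinases the translation list; a pattern for immunoglobulin genes was dropped because the 1 gene it kept, Ighmbp2, is not an immunoglobulin gene. Named genes were, per table, the 12 with the highest lower bound and the 12 with the lowest upper bound of the interval, the 8 with most reads in each library and, per list, the 4 with most mock reads and both extremes; cell type markers, members of lists of 5 or fewer and Dis3l2 were also named. Genes named outside that rule were chosen after their values were seen: Meg3, Firre and Xist, the snoRNA hosts and the microRNA genes beyond the extremes, Usp48, Ptma, Pisd-ps3, Nkx2-1, Cplx2, Rorb, Mylk4 and Olfr613. There were 10 alternatives, listed with their effects in the closing part on processing.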

Additional observations from a re-analysis of the deposited data

Results flagged for a closer look

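The median log2 ratios of 4 lists had opposite signs in the mock and the mutant pair, with 1 library of each kind; the difference was not tested. The 7SL RNAs had a median log2 ratio of IP to input of -4.33 in the mock and 0.85 in the mutant pair. The RNase P and MRP RNAs had -3.23 and 0.13, where the mutant value is that of Rprl3 and Rpph1 stayed below input in both pairs, at -3.23 and -0.71, and the U2 RNA Rnu2-10 had -2.81 and 0.25. The 5S ribosomal RNA copies had -0.067 and 3.84, and their mock value is at input level: relative to the table's median it was 0.04. The 5S inputs differed too, with 5829 reads in the mock input and 1233 in the mutant input. Their IP reads were 5579 and 28227.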

How the results depend on the processing

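With no replicates, counts of features past 4-fold moved most. In the noncoding table the 348 above became 770 with equal totals without the 20 features with most reads, 128 with a pseudocount of 5, 170 with a minimum of 50 reads and 62 with at least 20 reads in both libraries. The 273 below became 180 with equal totals without the 20 features, 98 with 20 reads in both and 478 with no filter. In the mRNA table the 244 above became 5796 without centring, 875 with equal totals, 1130 without the 20 features, 1797 with a pseudocount of 0.2, 120 with one of 5, 444 with a minimum of 10 reads, 41 with 20 reads in both and 1135 with no filter. The 806 below became 132, 466, 421 and, with a pseudocount of 5, 337; a minimum of 50 reads gave 405, 20 reads in both 136 and no filter 1990. The median of microRNA genes turned to 1.98 with a minimum of 10 reads, 5.93 with 20 in both and 0.36 with no filter, all relative to the table's median. Without centring, 17 of the mRNA features named by the rule turned from at least 4-fold below the median to above input: Col4a2 0.045, Snord17 0.058, Exosc2 0.18, Cycs 0.30, Zfp781 0.38, Mrpl35 0.55, Rpl35a 0.58, Gdf3 0.58, Tmsb10 0.65, Hist1h1c 0.82, Psmb6 0.83, Srprb 0.85, Mrpl43 0.88, Snrnp70 0.89, Hspb1 0.91, Wars2 0.98 and Jund 1.05. Named features less than 4-fold below the median, such as Myh9 at 1.47, lay above input too and are not in that count. Such reversals are built into the centring; the cause of the other changes was not tested. No paired analysis was possible because each group holds 1 library. The depth of the mock input in the mRNA table, 291175 reads, limits the ratios of single genes.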

Other observations

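Telomerase RNA, Terc, which templates the repeats at chromosome ends, had 73 reads in the mock input and 6 in the mock IP of the mRNA table, a ratio of 0.0822 (exact 95% interval 0.0292 to 0.188), and 119 and 13 in the mutant pair. Transcribed pseudogenes of the mRNA table lay near its protein-coding genes, with a median log2 ratio of 2.67 over 96 features beside 3.17 over 7179. Of 44 antisense and opposite-strand RNAs in the noncoding set, 8 were above and 4 below the median, where 22.4% and 17.6% of all noncoding features were. Of 14 transcripts named after genomic clones 0 were above and 8 below, and AC157822.1, with 2385 and 208 mock reads, had 2737 and 14248 in the mutant pair.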
